A study of Homo sapiens with 2 samples.

Results

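JUNB occupancy was followed around 8 genes of the tumour necrosis factor (TNF) system in IMR-90, a line of human lung fibroblasts. The genes were the ligand genes TNF, LTA, LTB and TNFSF11 and the receptor genes TNFRSF1A, TNFRSF1B, TNFRSF11B and TNFRSF12A, 8 of the 19974 protein-coding genes on chromosomes 1 to 22 and X. The genes were set by name, and every peak whose summit lay within 50 kb of its RefSeq span on GRCh38 was kept: 23 of 32550 untreated peaks and 13 of 25739 etoposide peaks. The assay was CUT&RUN, in which an antibody (here against JUNB, which pairs with FOS proteins in AP-1 transcription factors) guides a nuclease that releases the DNA at bound sites for sequencing. There were 2 libraries, 1 from cells without treatment and 1 from cells given etoposide, a drug that traps topoisomerase II on cut DNA and so leaves double-strand breaks. Both came from the same line and antibody, and the dose and duration of etoposide were not given in the sources used here. With 1 library per condition no difference had a replicate check and no test of treatment was run. No IgG or input library was used here.

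The TNF superfamily consists of trimeric ligands, most of them made as membrane proteins, and of receptors that recruit TRAF adaptors or death-domain proteins. TNF and lymphotoxin alpha bind both TNFRSF1A and TNFRSF1B, and TNFRSF1A signalling activates NF-kappa-B and the JUN kinases, which act on AP-1. In fibroblasts these pathways are known for inducing cytokines and matrix proteases, and soluble TNF receptors and osteoprotegerin, the product of TNFRSF11B, are counted among the secreted factors of senescent cells.

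The fragments at a summit, given below for each peak, are the number of sequenced fragments stacked there, recovered from the fold and the p that the authors list for it. They were 15 at the median untreated peak (quartiles 11 and 21) and 13 at the median etoposide peak (10 and 17), and the lowest listed value was 5 in both lists. The depth of the etoposide library was estimated at 0.836 of the untreated depth, so fragment numbers of the libraries are not on 1 scale. All 10 fibroblast marker genes had a peak within 50 kb in both libraries, where the shares over all protein-coding genes were 72.0% (untreated) and 62.6% (etoposide). Untreated and etoposide peaks lay near 4 and 1 of 8 blood cell markers, 5 and 4 of 6 epithelial markers and 3 and 2 of 4 endothelial markers. The epithelial and endothelial counts are near the shares over all genes. A region found in both lists lay near all 10 fibroblast markers, 1 of 8 blood cell, 3 of 6 epithelial and 2 of 4 endothelial markers, and near 51.1% of protein-coding genes. With so few markers per type, whether peak positions set fibroblasts apart was not tested. A peak near a gene does not show that the gene is transcribed.

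An untreated JUNB peak lay within 50 kb of 7 of the 8 genes and an etoposide peak within 50 kb of 4 of them. Over all protein-coding genes these shares were 72.0% and 62.6%. The 4 genes with peaks in both lists were all receptor genes, and 58.6% of protein-coding genes had peaks in both. TNF, LTA and LTB had untreated peaks only, as 13.5% of protein-coding genes did, but they are neighbours and share the same 2 peaks. TNFSF11 had no peak in either list, as 23.9% of protein-coding genes did. No gene of the 8 had an etoposide peak only (4.05% of protein-coding genes). Counted as 6 separate loci, 5 had an untreated peak, 4 an etoposide peak and 3 a region found in both lists. Etoposide peaks were fewer than untreated peaks at 6 of the 8 genes, against 45.6% of protein-coding genes, and more at TNFRSF12A, against 12.9%. By locus, etoposide peaks were fewer at 4 of 6. The numbers of peaks per gene spread widely: TNFRSF1A and TNFRSF11B each had 8 untreated peaks, a number that 4.40% of protein-coding genes reached or passed, where the median gene had 2 untreated peaks and 1 etoposide peak.

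**Figure D1:**
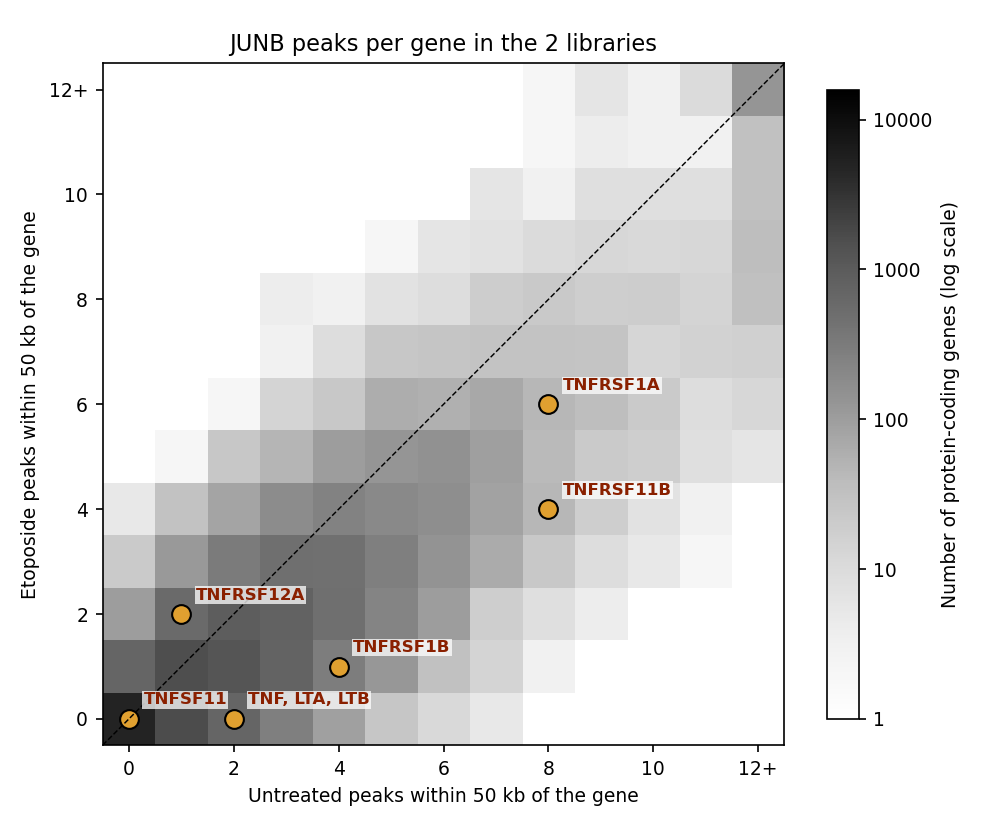
Number of untreated (x axis) and etoposide (y axis) JUNB peaks within 50 kb of each gene; grey shading gives the number of protein-coding genes on a log scale, orange points are the 8 TNF ligand and receptor genes, and the dashed line marks equal numbers. TNFRSF1A (8 and 6) and TNFRSF11B (8 and 4) stand far to the right, TNF, LTA and LTB (2 and 0) lie on the x axis, and TNFRSF12A (1 and 2) is the gene above the line.

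The ligand genes TNF, LTA and LTB lie side by side on chromosome 6 in the major histocompatibility complex (MHC). TNF encodes the founding cytokine of the family, LTA encodes lymphotoxin alpha and LTB encodes the membrane subunit that holds lymphotoxin alpha at the cell surface. TNF spans 31575565 to 31578336, LTA 31560610 to 31574324 and LTB 31580558 to 31582425. The nearest peak to all 3 was an untreated peak at 31563253 to 31563502, with 13 fragments at the summit (exact 95% Poisson interval 6.92 to 22.2, counting error only), the authors' fold of 9.45 and rank 8942 of 32550 by -log10 q. It lay inside the longest annotated span of LTA and also inside the long non-coding RNA gene LOC100287329, 12.2 kb from TNF and 17.2 kb from LTB. It was 8.72 kb before the nearer of the annotated LTA starts with a listed promoter window. The other untreated peak, at 31542111 to 31542313 with 10 fragments (4.80 to 18.4), lay 0.241 kb before DDX39B, an RNA helicase gene for mRNA export, inside the readthrough gene ATP6V1G2-DDX39B and 33.3 kb from TNF. Neither had an etoposide counterpart, and the nearest etoposide peak to this cluster lay 175 kb from TNF, at 31753009 to 31753201, with 10 fragments.

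The promoters of these genes were read from RefSeq promoter windows on GRCh38, patch 14, which run from 250 bases before to 50 bases after a gene's start. The 250 bases before the TNF start are shown because no peak of either list overlapped them, and the 250 bases before the DDX39B start because they hold the untreated summit at 31542244. Both run 5′ to 3′ on the strand of their gene. Capitals mark the letters TATAAA in TNF (chr6:31575315-31575564, + strand) and the 7 bases centred on the untreated summit in DDX39B (chr6:31542004-31542253, - strand).
TNF: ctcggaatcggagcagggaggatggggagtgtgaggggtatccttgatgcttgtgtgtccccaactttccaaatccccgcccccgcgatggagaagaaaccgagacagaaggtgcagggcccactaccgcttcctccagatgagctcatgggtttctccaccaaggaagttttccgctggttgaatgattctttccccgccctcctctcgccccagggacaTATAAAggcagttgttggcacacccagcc
DDX39B: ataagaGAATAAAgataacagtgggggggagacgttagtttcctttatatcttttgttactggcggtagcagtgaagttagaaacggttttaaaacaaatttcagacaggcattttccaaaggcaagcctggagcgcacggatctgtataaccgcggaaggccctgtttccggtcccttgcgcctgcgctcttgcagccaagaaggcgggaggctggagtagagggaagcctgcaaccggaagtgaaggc

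The consensus AP-1 letters TGANTCA, which read the same on both strands, were absent from both stretches. That says only that these letters are not in these windows. Peaks were sparse across the MHC as a whole. Between HLA-F and HLA-DPB1, a span of 3.37 Mb, there were 3.27 untreated and 3.86 etoposide peaks per Mb, against 11.9 and 9.95 on the rest of chromosome 6. The reference used by the authors also held 7 alternate MHC haplotype contigs, on which 72 untreated and 78 etoposide peaks were listed. Gene positions on those contigs were not used here, and the part of these copies in the few peaks at TNF, LTA and LTB was not tested.

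TNFSF11 encodes RANKL, the ligand that drives osteoclast formation through the receptor TNFRSF11A. It spans 42562736 to 42608013 on chromosome 13, has no other protein-coding gene within 50 kb, and its 50 kb window was empty in both lists. The nearest was a region found in both lists 75.7 kb away. Its untreated peak at 42486819 to 42487412 had 16 fragments and its etoposide peak at 42486540 to 42487404 had 21. A further region on the other side, 88.6 kb from the gene, was also in both lists, with 12 and 11 fragments. Thus every peak between 50 and 100 kb of TNFSF11 was shared.

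TNFRSF1A encodes the death-domain receptor for TNF that most cell types carry. The gene spans 6328771 to 6342076 on chromosome 12, on the minus strand, so its start is at the high-coordinate end. It had the most peaks of the 8 genes in the etoposide list: 8 untreated peaks, 4 of them shared, and 6 etoposide peaks, 5 of them shared. They fell into 9 regions, of which 4 were shared, 4 were untreated only and 1 was etoposide only. The map of peaks by locus shows them at the gene itself, just before its start and on both flanks.

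The only peaks inside TNFRSF1A were an untreated pair, and no other peak of either list had TNFRSF1A as its nearest protein-coding gene. The first, at 6335829 to 6336303, had 33 fragments at its summit (22.7 to 46.3), and the second, at 6336456 to 6336672, had 32 (21.9 to 45.2). They lay 152 bp apart, 6167 and 5505 bp after the gene's start, on local backgrounds of 5.05 and 5.07 fragments where the list's median was 1.27. No etoposide peak lay within 8.66 kb of either. Against that background their folds were 5.62 and 5.44, and by -log10 q they ranked 7633 and 8653 of 32550. Of 2739 untreated peaks with 32 or more fragments, whatever their background, 4.71% had no counterpart, a limit set after these values were seen. The single peak of the etoposide list alone lay 5.10 kb past the other end of TNFRSF1A, inside PLEKHG6, at 6323304 to 6323777 with 12 fragments (6.20 to 21.0).

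Upstream of TNFRSF1A, both lists held a peak between the gene and SCNN1A, the gene of an epithelial sodium channel subunit. The untreated peak at 6345228 to 6345801 had 17 fragments (9.90 to 27.2) with its summit 3278 bp before the TNFRSF1A start. The etoposide peak at 6345334 to 6345813 had 12 fragments (6.20 to 21.0) with its summit 3658 bp before it. The summits were 380 bp apart and lay nearer to SCNN1A, 1.49 kb (untreated) and 1.11 kb (etoposide) away, than to TNFRSF1A. Both peaks reach into the promoter window of the long non-coding RNA gene LOC112268088, and the 250 bases before its start are shown because they hold the etoposide summit and an AP-1 consensus match (chr12:6345554-6345803, + strand, 5′ to 3′). Capitals mark the match TGAGTCA, which begins at 6345646.
LOC112268088: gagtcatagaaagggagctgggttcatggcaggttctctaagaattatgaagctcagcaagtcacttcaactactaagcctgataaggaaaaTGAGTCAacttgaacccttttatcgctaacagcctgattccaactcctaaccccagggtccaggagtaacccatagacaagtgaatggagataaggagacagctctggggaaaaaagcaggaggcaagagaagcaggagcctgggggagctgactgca

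The middle of that match lay 85 bp from the etoposide summit and 295 bp from the untreated summit. TGANTCA occurred in 7.68% of 34961 promoter windows of 300 bases on these chromosomes. It occurred in 28.7% of the 289 windows holding a shared untreated summit and in 9.16% of the 939 holding an untreated summit without counterpart. For etoposide the shares were 35.8% of 296 and 22.7% of 128. The 9 promoter windows listed for 6 of the 8 genes had no match to TGANTCA and no overlapping peak in either list. Their nearest summits were those at TNFRSF1A, 3.28 kb (untreated) and 3.66 kb (etoposide) from the start. TNFRSF11B and TNFRSF12A had no window to read.

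The strongest peaks around TNFRSF1A lay on its far flank, in the long non-coding RNA gene LOC105369625. The untreated peak at 6286126 to 6287236, 42.4 kb from the gene, had 51 fragments (38.0 to 67.1) and ranked 1317. A weaker untreated peak in the same gene, 36.2 kb from TNFRSF1A with 19 fragments, had no counterpart. The strongest one met 2 separate etoposide peaks, at 6285874 to 6286520 with 23 fragments and at 6286749 to 6287223 with 25. At 48.7 kb a further shared region had 30 untreated and 20 etoposide fragments, which was the peak nearest to the limit of the window in both lists. Just outside the limit over all 8 genes were peaks 53.7 kb (untreated, 9 fragments) and 54.1 kb (etoposide, 12 fragments) from TNFRSF1B, which overlapped each other. Inside SCNN1A, a shared region 30.7 kb from TNFRSF1A had 20 and 16 fragments, and an untreated peak 1197 bp from the etoposide one had 26 fragments (17.0 to 38.1) and no counterpart. These lay close to LTBR, the lymphotoxin beta receptor gene, which shares them within its own 50 kb window.

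TNFRSF1B encodes the TNF receptor without a death domain, which is found chiefly on immune and endothelial cells and recruits TRAF2. It spans 12166991 to 12209220 on chromosome 1, plus strand. It had 4 untreated peaks and 1 etoposide peak, and none was shared. The window's limit bears on this: all 3 untreated peaks between 50 and 100 kb, 53.7, 87.5 and 99.1 kb away, were shared. Among protein-coding genes, 23.7% had 4 or more untreated peaks within 50 kb and 1.25% had that many with no shared region. All 4 untreated peaks were modest, with 9 to 14 fragments. The peak inside the gene, at 12178946 to 12179179, lay 12135 bp after the start with 13 fragments (6.92 to 22.2). The peak at 12162021 to 12162222, 4924 bp before the start, had 12 fragments (6.20 to 21.0). The strongest, at 12143792 to 12144096 with 14 fragments, lay 23 kb away inside TNFRSF8, which encodes the family receptor CD30. The last untreated peak, at 12153358 to 12153574 with 9 fragments, lay only 189 bp from the etoposide peak at 12153763 to 12153951, also with 9 fragments (4.12 to 17.1). Their summits were 393 bp apart, so by the 1 bp rule each counted as found in 1 library alone.

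**Figure D2:**
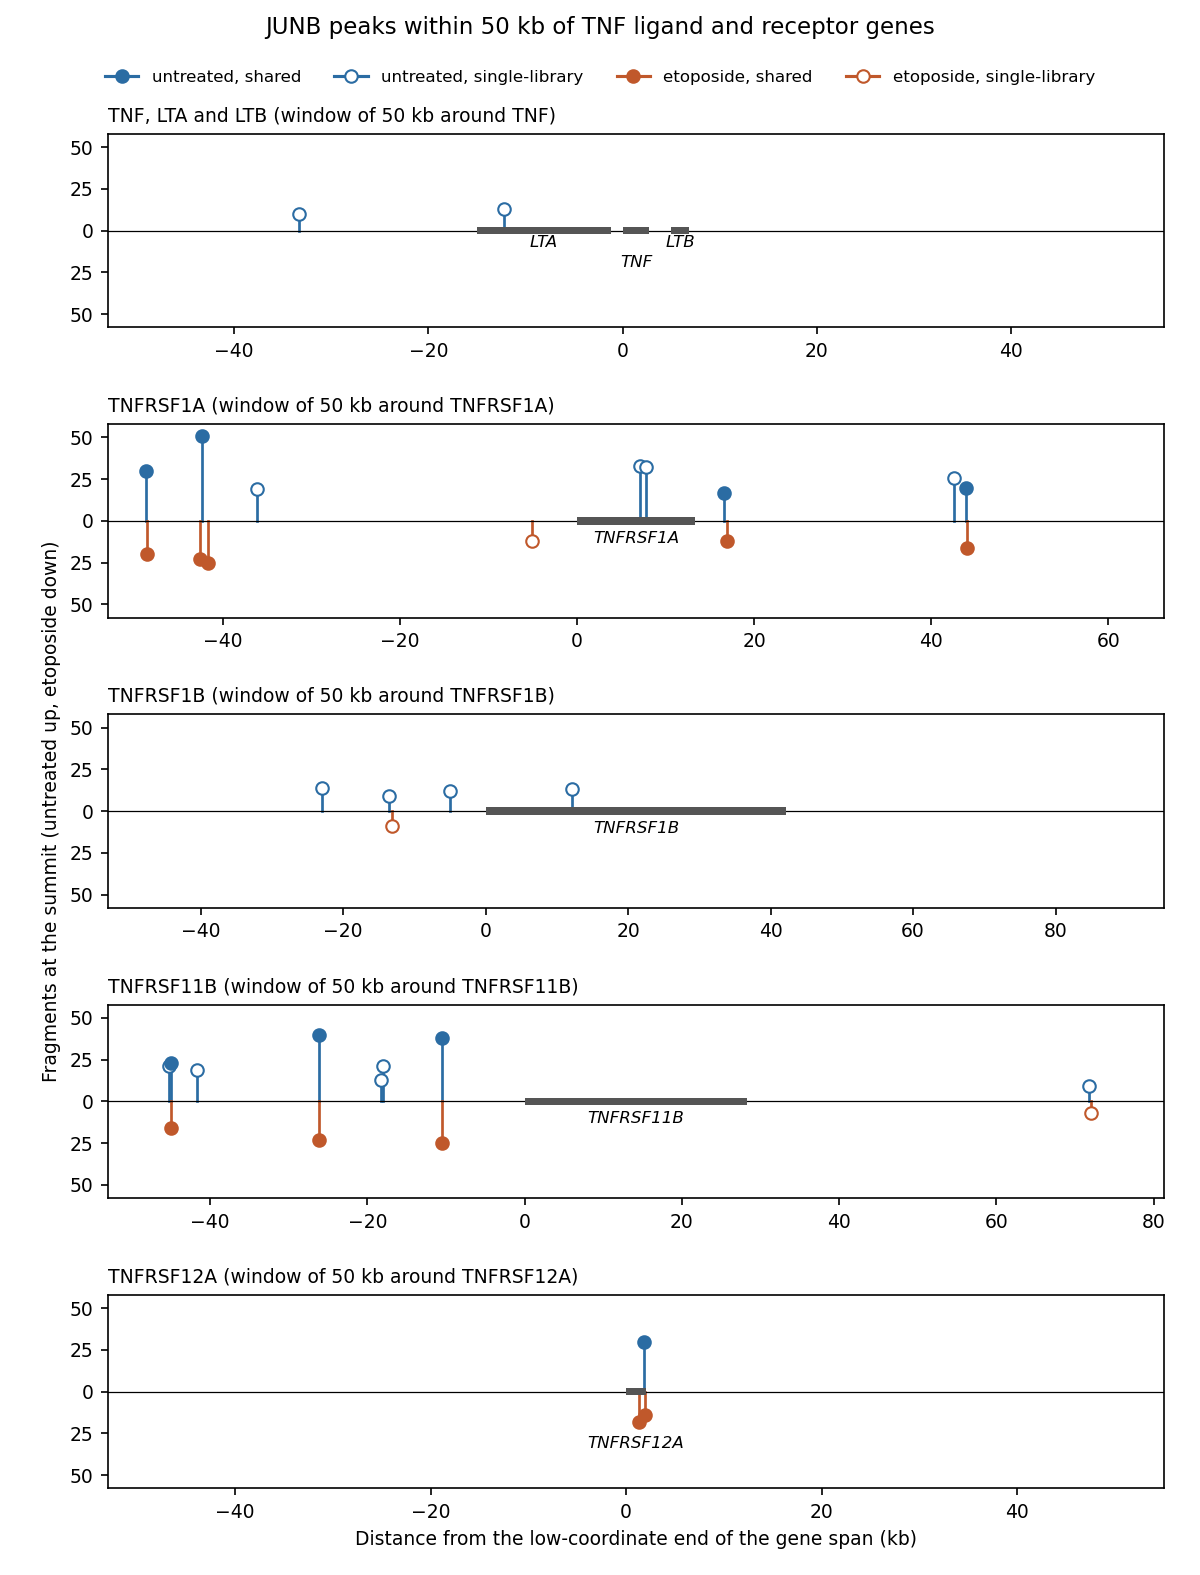
JUNB peaks within 50 kb of the genes that had any, with the summit's distance from the low-coordinate end of the gene span in kb on the x axis and fragments at the summit on the y axis (untreated drawn up, etoposide drawn down; filled points have a counterpart in the other list, open points do not; grey bars are gene spans). The 2 open untreated points inside TNFRSF1A (33 and 32 fragments) have no etoposide point below them, whereas the filled untreated points on its flanks and beside TNFRSF11B each have at least 1 filled etoposide point below them.

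TNFRSF11B encodes osteoprotegerin, a secreted decoy receptor that binds RANKL and TRAIL. It spans 118923557 to 118951885 on chromosome 8. No peak of either list lay inside it or within 10 kb. All but 1 of its peaks in each list lay beyond its low-coordinate end: 7 of 8 untreated and 3 of 4 etoposide peaks. The strongest, 26.2 kb away at 118897239 to 118897562, had 40 untreated fragments (28.6 to 54.5), the authors' fold of 13.7 and rank 759, the best rank of any of the 23 untreated peaks. Its etoposide counterpart at 118897119 to 118897526 had 23 fragments (14.6 to 34.5) and rank 2402, the best of the 13. The shared region nearest to the gene, 10.6 kb away, had 38 fragments in the untreated peak at 118912577 to 118913540 and 25 in the etoposide peak at 118912883 to 118913337. The remaining shared region, 45.0 kb away, had 23 and 16.

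Other untreated peaks of TNFRSF11B had no counterpart. A pair 18.3 and 18.0 kb from the gene had 13 and 21 fragments, another at 41.7 kb had 19, and a peak at 45.3 kb with 21 fragments stood 126 bp from the nearest etoposide peak. On the other side, inside the collectin gene COLEC10, an untreated peak at 118995288 to 118995489 (9 fragments) and an etoposide peak at 118995496 to 118995770 (7 fragments) lay 7 bp apart without overlapping. All 3 shared regions thus stood on 1 side of the gene, and the best-ranked peak of each list was among them.

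TNFRSF12A encodes FN14, the receptor for TWEAK, a small receptor that growth factors induce in fibroblasts. It spans 3020368 to 3022383 on chromosome 16. Among the receptor genes described here, only TNFRSF12A had peaks inside its span that were found in both libraries. The untreated peak at 3021612 to 3022389 had 30 fragments (20.2 to 42.8) on a local background of 4.55. Over the same stretch the etoposide list had 2 peaks, at 3021588 to 3021805 with 18 fragments (10.7 to 28.4) and at 3021998 to 3022411 with 14 (7.65 to 23.5). The larger number of etoposide peaks at this gene is therefore 1 region listed as 2 peaks. The region covers the high-coordinate end of the gene, and no other peak lay within 100 kb in either list, although 11 other protein-coding genes lie within 50 kb.

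Over the 8 genes the untreated and etoposide peaks joined into 26 regions, of which 8 were shared, 15 were untreated only and 3 were etoposide only. Over all 41170 regions of the series 39.3% were shared, 38.7% untreated only and 22% etoposide only. By peak, 8 of the 23 untreated peaks had a counterpart (34.8%, 95% Wilson interval 18.8% to 55.1%), where 51.0% of all untreated peaks did. Of the 13 etoposide peaks 10 had one (76.9%, 49.7% to 91.8%), where 64.8% of all etoposide peaks did. Both intervals include the share over all peaks. Shared peaks were stronger by their median, which was 30 fragments against 14 for peaks without counterpart in the untreated list. In the etoposide list it was 19 against 9. Over all peaks these medians were 19 against 12 and 14 against 10. Single peaks near these genes overlapped in strength with shared ones. At TNFRSF1A, untreated peaks without counterpart had 33 and 32 fragments, and a shared untreated peak had 17. Among untreated peaks with 25 or more fragments, 5 of 8 near these genes had a counterpart, where 87.1% of all such peaks did. Those without one included the pair inside TNFRSF1A, whose peaks lay only 152 bp apart. Below 15 fragments none of 8 did, against 32.1% of all such peaks. Among these 8, a TNFRSF11B peak and a TNFRSF1B peak missed an etoposide peak by 7 bp and 189 bp.

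Each of the 8 shared regions had fewer fragments in the etoposide library than in the untreated library. The ratio of etoposide to untreated fragments, each at the highest summit of its list in the region, ran from 0.490 to 0.8 with a median of 0.663. Over all 16167 shared regions of the series the median ratio was 0.769 (quartiles 0.619 and 1), and it was below 1 in 74.2% of them. The lowest ratio, 0.490, belonged to the TNFRSF1A region with 51 and 25 fragments (exact 95% interval from counting alone, 0.291 to 0.806), and 8.13% of all shared regions had a lower one. The TNFRSF11B region with 40 and 23 fragments had a ratio of 0.575 (0.329 to 0.984). The region at TNFRSF12A had a ratio of 0.6 (0.315 to 1.11). Each of these intervals contains the series median, so their distance from that median was within counting error. The highest summits of the lists lay 752 bp apart in the TNFRSF1A region and 485 bp apart at TNFRSF12A, so those counts come from different positions. The etoposide summits nearer to the untreated ones, 155 bp (TNFRSF1A) and 94 bp (TNFRSF12A) away, had 23 and 14 fragments.

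**Figure D3:**
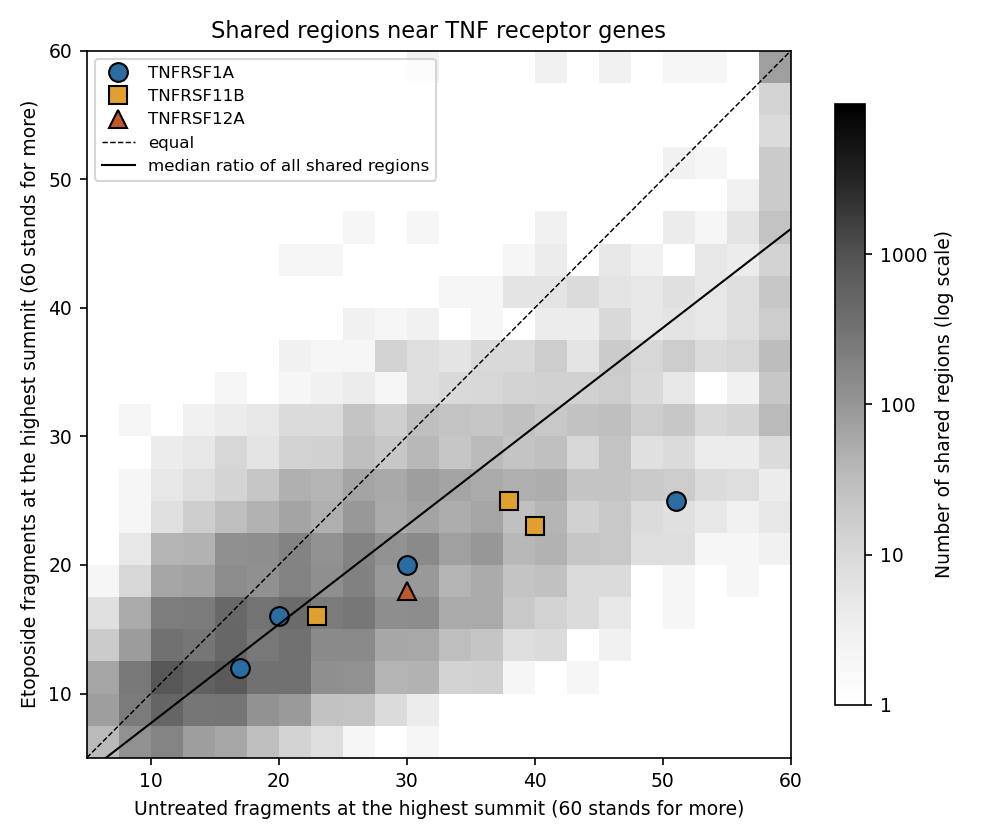
Fragments at the highest summit in the untreated (x axis) and etoposide (y axis) library for all shared regions (grey shading, number of regions on a log scale) and for the 8 shared regions near TNFRSF1A, TNFRSF11B and TNFRSF12A (coloured points). All 8 points lie below the dashed line of equal numbers, and the TNFRSF1A region with 51 and 25 fragments lies farthest below the solid line, which marks the series median ratio of 0.769.

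Other genes of the pathway were counted from a list of 62 ligands, receptors and signalling proteins. An untreated peak lay within 50 kb of 10 of 14 other ligand genes, 21 of 25 other receptor genes and 18 of 23 adaptor and signalling genes. An etoposide peak did so at 8, 19 and 18. In all, untreated peaks lay near 49 of 62 (79.0%) and etoposide peaks near 45 (72.6%), against 72.0% and 62.6% of protein-coding genes. A region found in both lists lay near 40 of the 62, against 51.1% of protein-coding genes. Etoposide peaks were fewer than untreated peaks at 34 of the 62 genes and more at 5, where the shares over all protein-coding genes were 45.6% and 12.9%. Within 10 kb, 38 had an untreated and 29 an etoposide peak, where the shares over all protein-coding genes were 49.6% and 38.9%. In that narrower window 4 of the 8 genes described here had an untreated peak (LTA, TNFRSF1A, TNFRSF1B and TNFRSF12A) and 2 an etoposide peak (TNFRSF1A and TNFRSF12A).

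Pathway genes were ranked by how closely their numbers of shared, untreated-only and etoposide-only regions came to those of each gene with at least 3 regions, by the sum of absolute differences over these 3 numbers. Nearest to TNFRSF1A (4, 4 and 1 regions) were ADAM17, the sheddase that frees TNF from the membrane (4, 1 and 1), LTBR (3, 3 and 0) and TNFRSF8 (2, 5 and 1), tied at a sum of 3. Nearest to TNFRSF1B (0, 4 and 1) were TNFRSF6B, a decoy receptor for FAS ligand (0, 3 and 0), and the adaptor TRAF1 (1, 4 and 0), each with a sum of 2. Nearest to TNFRSF11B (3, 5 and 1) was TNFRSF8 (2, 5 and 1) with a sum of 1, followed by LTBR, TNFRSF10C (1, 5 and 2) and TNFRSF19 (1, 6 and 1), tied at 3. LTBR lies within 50 kb of TNFRSF1A and shares peaks with it, so its likeness to TNFRSF1A rests in part on the same peaks counted again. TNFRSF8 lies within 50 kb of TNFRSF1B and shares some of its peaks.

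**Figure D4:**
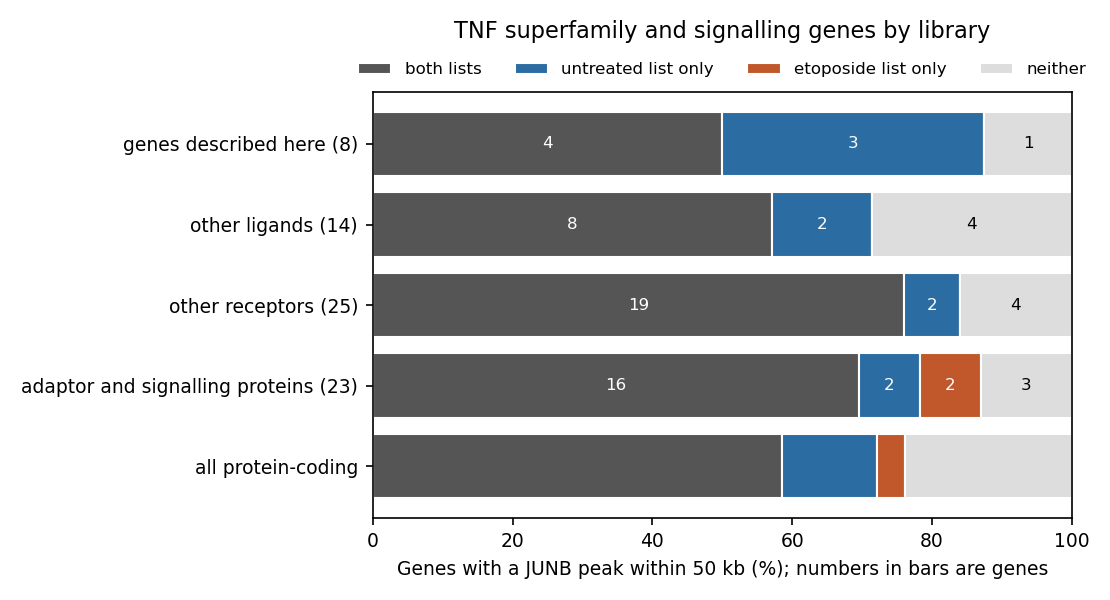
Share of genes (x axis, percent) with a JUNB peak within 50 kb in both lists, in the untreated list only, in the etoposide list only or in neither, for the 8 genes described here, the other ligands, receptors and signalling proteins, and all protein-coding genes; numbers in the bars are genes. Peaks in both lists were near 4 of the 8 genes and 19 of 25 other receptor genes, and peaks in the etoposide list only were near 2 adaptor and signalling genes.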

How the data were processed

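JUNB was profiled by CUT&RUN in 1 untreated and 1 etoposide-treated library, grouped by the treatment label. The authors deposited 1 peak list per library in narrowPeak layout. Per the submitters' processing notes, Bowtie2 and MACS2 were used and the builds hg38 and mm10 are named without their roles; the contig names in the lists are those of hg38. Versions, settings and filters were not given in the sources used here. In the deposited lists the score equals -log10 q times 10, cut to a whole number, the fold is the ratio of summit signal to local background, and -log10 p and -log10 q are given at the summit. These are the authors' values and were used to describe, rank and filter peaks within their own list.

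Peaks on chromosomes 1 to 22 and X were set against RefSeq gene spans of GRCh38, patch 14 (positions counted from 1). Peaks were shared when they had at least 1 bp in common. Fragments at the summit are the whole number k that, with a background b, gave the deposited fold as (k + 1)/(b + 1) and the deposited -log10 p as a Poisson tail. This held for 100% of peaks within 0.001, and the step was tested on simulated data. Relative depth was the ratio of lowest backgrounds (0.782) divided by that of smallest peak widths (0.936), which assumes that these reflect genome-wide coverage and fragment length. Intervals cover counting error only. Exon and intron positions were not used here. Python 3.11.15, pandas 2.3.3 and scipy 1.17.1 were used.

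The genes, the lists and the alternatives were chosen with earlier results of these data known. The text names all 8 genes, describes for each library the nearest peak and the one with the highest -log10 q, and names pathway genes by likeness of region numbers. Alternatives were other windows, thresholds, list lengths and overlap rules.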

Additional observations from a re-analysis of the deposited data

Results flagged for a closer look

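Signal lay in data that the comparisons left out. On the 7 alternate MHC haplotype contigs, which carry further copies of the chromosome 6 region that holds TNF, LTA and LTB, the untreated list had 72 peaks and the etoposide list 78. Per contig there were 1 to 14 untreated and 2 to 18 etoposide peaks. On chromosome 6 itself the span from HLA-F to HLA-DPB1 held 11 untreated and 13 etoposide peaks, 5 of each shared. How reads that match several of these copies were placed was not tested.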

How the results depend on the processing

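Etoposide peaks were fewer than untreated peaks around these genes under every alternative run for both numbers. With a window of 10 kb the genes with a peak fell to 4 untreated and 2 etoposide, and the peaks to 7 and 4; with 100 kb there were 34 and 25 peaks. The 10000 strongest peaks of each list gave 11 and 6 peaks, with 7 and 2 genes. Keeping only peaks whose nearest protein-coding gene was among the 8 gave 13 and 5. The shared share of etoposide peaks was 46.2% when 50% of both peaks had to overlap, 46.2% when summits had to lie within 100 bp, and 92.3% when a gap of up to 200 bp was allowed, an alternative chosen after seeing the data. The untreated share was 26.1% under each of the stricter rules and 47.8% with the gap allowed. No share over all peaks is given for these rules. The values therefore cannot be set against the shares over all peaks above, which used the 1 bp rule. By the 1 bp rule, 17 of 34 untreated and 19 of 25 etoposide peaks were shared with the 100 kb window. With the 10 kb window 2 of 7 and 3 of 4 were shared. A -log10 q of at least 5, and peak edges in place of summits, moved none of these numbers. Of 42 alternative values of the main results 29 stayed within 1.5 times or within the interval. No paired analysis was possible because each condition had 1 library, and for the same reason no library could be left out. A missing peak means that no peak was listed at this depth, and weaker binding cannot be seen. The weakest listed peaks had 5 fragments, but p and q depend on local background, so that number is not a limit for every locus. At TNFRSF12A an etoposide peak with 14 fragments on a background of 2.17 had a -log10 q of 5.03.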

Other observations

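Among the 62 further pathway genes, those with uneven numbers are given here as values, picked after the numbers were seen. IKBKB, a kinase that frees NF-kappa-B from its inhibitor, had 7 untreated peaks within 50 kb and 1 etoposide peak, and TNFRSF10B, a TRAIL death receptor, had 8 and 2. In the other direction, MAP3K5, a stress kinase upstream of the JUN kinases, had 8 untreated and 11 etoposide peaks. All lay inside its span or within 10 kb of it, and 6 regions were found in both lists. Peak numbers were not scaled by the length of a gene. CHUK, the partner kinase of IKBKB, had 2 etoposide peaks and no untreated peak within 50 kb, and the adaptor gene TRAF5 had 1 etoposide peak and no untreated peak. Of the 14 further ligand genes, 4 (CD40LG, CD70, TNFSF9 and TNFSF14) had no peak within 50 kb in either list, where 23.9% of protein-coding genes had none. Other ligand genes of immune cells had peaks in both lists. TNFSF4 had 9 untreated and 8 etoposide peaks, TNFSF18 had 4 and 4, TNFSF8 had 4 and 2, and FASLG had 3 and 1. Of the 14 ligand genes, 8 had fewer etoposide than untreated peaks and 0 had more, against 45.6% and 12.9% of protein-coding genes.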
